A study of Auxenochlorella pyrenoidosa with 18 samples.

Results

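Short coding introns, defined as gaps of under 120 bases between neighbouring coding segments of a predicted gene, were described in the gene models of the green alga Auxenochlorella pyrenoidosa. For each gene the transcript with the longest summed coding sequence was taken. Of the 85135 coding introns of these transcripts 3753, or 4.41% (95% Wilson interval 4.27 to 4.55%), were under 120 bases. They lay in 2667 of 10143 genes with a coding intron, and all 3753 matched a deposited intron line with the same ends. The comparison set was the 66168 coding introns of these models from 120 to under 300 bases long. The study behind these models took whole cells of strain FACHB-9 from growth on glucose and urea to growth in the light. Its 18 libraries fall into 6 groups of 3, labelled heterotrophy at 0, 24 and 72 h and phototrophy at 2, 8 and 24 h. Read counts and expression values of these libraries were not analysed here, so their depth is unknown here and no group was compared with another.

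Introns are cut from the primary transcript by the spliceosome, which reads short sequence signals at both ends and a branch point inside the intron. Short introns can be recognised as a unit across the intron itself, whereas in genes with long introns the exon is often the unit. The phase of an intron says where it cuts the reading frame. Phase 0 falls between codons, phase 1 after the first base of a codon and phase 2 after the second. An intron whose length is a multiple of 3 leaves the downstream frame intact if it stays in the messenger RNA, unless it holds a stop codon. All introns described here are predictions of AUGUSTUS, a program that finds genes in genome sequence. The models carry no gene names, and the bases of the introns, with their splice sites and branch points, were not analysed here.

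Most short introns were close to the upper limit of the class, and few were under 80 bases. Their median length was 105 bases (quartiles 93 and 114), against a median of 197 bases (quartiles 164 and 235) in the comparison set. Counts climbed with length. There were 70 introns under 60 bases, 258 of 60 to 79, 1101 of 80 to 99, 888 of 100 to under 110 and 1436 of 110 to under 120 bases. From 91 to 105 bases the counts per length lay between 40 and 92 without a steady rise. Counts went on climbing across the upper limit of the class: the 5 lengths from 115 bases upward held 819 introns and the 5 lengths from 120 bases upward held 1000. Of those just inside, 18.1% were first introns and 69.4% had a score of at least 0.95, against 19.8% and 71.9% of those just outside.

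**Figure D1:**
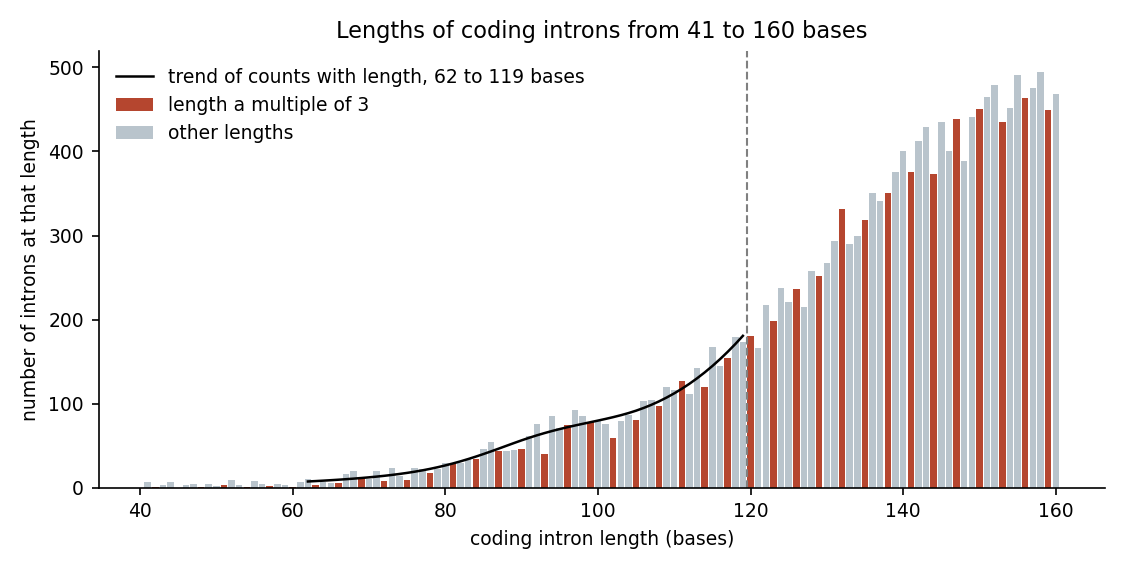
Number of predicted coding introns (vertical axis) at each length from 41 to 160 bases (horizontal axis), with lengths that are a multiple of 3 in red and others in grey; the dashed line marks the limit of the short class. The black curve is the smooth trend fitted from 62 bases to the limit, and 17 of the 19 multiples of 3 on it held fewer introns than the mean of the lengths on either side. From 120 to under 300 bases 41 of 59 multiples of 3 did.

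The lower limit was abrupt. The shortest coding introns measured 41 bases, and there were 7 of them, whereas lengths 42, 43 and 44 held 1, 3 and 7 introns and no intron was 45 bases long. Whether the predictor was given a minimum length is not stated in the sources used here. The 7 introns of 41 bases all lay in complete models, and 6 of them were the first or the last intron of their gene. The first introns belonged to g331 (scaffold00012, bases 1763961 to 1764001, minus strand, score 0.85), g5383 (scaffold00747, bases 3789 to 3829, minus strand, score 0.91) and g5904 (scaffold00852, bases 155902 to 155942, minus strand, score 0.8). The last introns belonged to g2803 (scaffold00366, bases 74178 to 74218, plus strand, score 0.54), g8810 (scaffold01204, bases 541753 to 541793, plus strand, score 1) and g9188 (scaffold01211, bases 580268 to 580308, minus strand, score 0.93). The coding exons that followed these last introns were tiny, with 21, 9 and 6 bases. The remaining intron of 41 bases was the 5th of 6 in g10042 (scaffold01295, bases 63520 to 63560, minus strand, score 0.97). Of the 70 introns under 60 bases, each in a different gene, 18 were first introns and 30 were last introns, and 20 had a score of at least 0.95.

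Lengths that are a multiple of 3 were rarer among short introns than a smooth trend of counts with length would give. From 62 bases, the lowest length with at least 10 introns, up to the limit of the class, 28.3% of 3675 introns had such a length, against 31.7% under the trend alone. The trend share is below 1 in 3 because fewer of the common, longer lengths of this class are multiples of 3. In a quasi-Poisson regression of the counts on a spline of length, multiples of 3 held 0.851 times the introns of other lengths on the trend (95% interval 0.782 to 0.926, n = 3675, Benjamini-Hochberg adjusted p = 0.000339). Of the 19 multiples of 3, 17 held fewer introns than the mean of the lengths 1 base shorter and 1 base longer. In the comparison set 41 of 59 multiples of 3 did. Fewer introns than at either of those lengths were held by 10 of the 19 and by 23 of the 59. The comparison introns gave a ratio of 0.990 (0.970 to 1.01), with 33.1% multiples of 3 against 33.4% under the trend. The short ratio was 0.860 times the comparison ratio (0.788 to 0.938, n = 69843, adjusted p = 0.0011). The trend of the comparison set ran above the counts just past the limit, with 166 introns of 121 bases against 224 on the trend. With neighbouring lengths in place of a trend the short ratio was 0.845 (0.786 to 0.908). It was then 0.853 times the comparison ratio (0.792 to 0.919).

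The deficit of multiples of 3 was larger at the ends of genes. Among short introns the ratio was 0.792 (95% interval 0.684 to 0.917, n = 1032) for first introns and 0.649 (0.529 to 0.797, n = 435) for last introns. It was 0.924 (0.831 to 1.03, n = 2208) for introns that are neither first nor last, an interval that includes 1. First and last introns together had a ratio 0.810 times that of the other introns (0.688 to 0.955, n = 3675, adjusted p = 0.0168 over 7 tests chosen after the data were seen). The predictor's score was at least 0.95 for 59.4% of 1049 short introns with a length that is a multiple of 3 and for 61.5% of the other 2704. The odds ratio of 0.914 did not pass the threshold of 0.05 (95% interval 0.808 to 1.03, n = 3753, adjusted p = 0.153 over the same 7 tests).

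Short introns were concentrated at the first position of the coding sequence. Among genes of 3 or more coding introns, 26.9% of 3664 short introns were the first, against 10.1% of 64540 comparison introns. The odds ratio was 3.43 (95% interval 3.15 to 3.73, n = 68204, adjusted p = 8.66e-130) in a logistic regression that held the number of introns of the gene fixed. Seen from the genes, 10.8% of 9688 first introns were short (95% Wilson interval 10.2 to 11.4%), 4.55% of the second ones (4.14 to 5.01%) and 2.43% of the third ones (2.11 to 2.79%). From the fourth to the tenth intron the share lay between 2.66 and 3.56%. The last intron had a share of 4.83% (4.42 to 5.28%). Genes with a single coding intron had a short one in 7 of 455 cases.

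**Figure D2:**
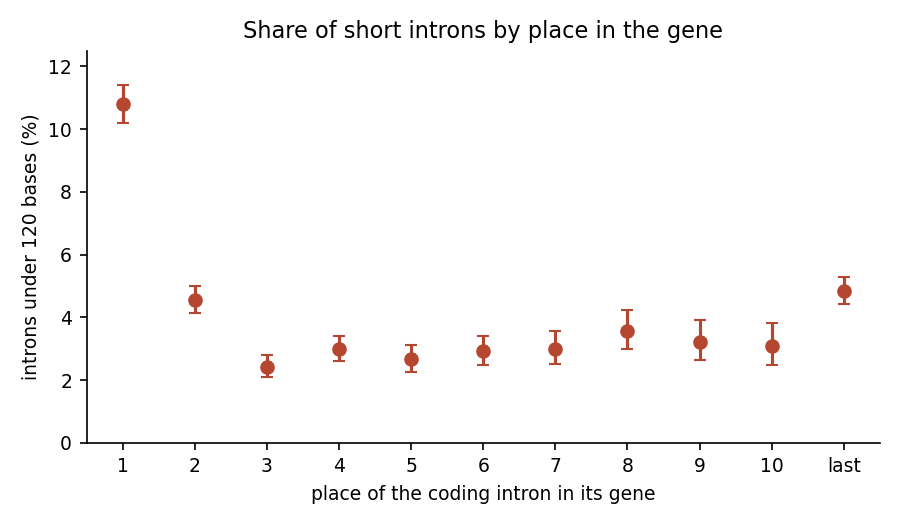
Share of coding introns under 120 bases, in percent (vertical axis), by the place of the intron in genes with more than 1 coding intron (horizontal axis; places 1 to 10 leave out last introns, which are given at the right); points are shares and bars 95% Wilson intervals. The first intron stands at 10.8%, the third at 2.43% and the last at 4.83%.

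Short introns had a mean relative position in the coding sequence, where 0 is the start and 1 the end, of 0.419 ± 0.321 (SD, n = 3753), against 0.492 ± 0.272 (SD, n = 66168). The difference was -0.0731 (95% interval -0.0837 to -0.0625, n = 69921, adjusted p = 1.74e-38). Its size and direction depended on which introns entered. The sets without first introns, or without first and last ones, were chosen after the data were seen, each adjusted within its own set. Without the first introns the means were 0.549 for short and 0.535 for comparison introns, a difference of 0.0137 in the other direction (0.00356 to 0.0239, n = 61383, adjusted p = 0.0133). Without the first and the last introns the means were 0.475 for short and 0.493 for comparison introns, a difference of -0.0173 (-0.0297 to -0.00497, n = 53366, adjusted p = 0.00807). Among first introns alone the means were 0.0860 for short and 0.156 for comparison introns. The odds ratio for being the last intron was 1.09 over all introns (0.998 to 1.198, n = 68204, adjusted p = 0.0651), and 1.58 (1.44 to 1.74, n = 60720, adjusted p = 1.09e-19) among introns after the first. With a score of at least 0.95 required, it turned to 0.836 (0.747 to 0.935, n = 58889, adjusted p = 0.00288). The direction for the last place thus depends on which introns enter.

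First coding introns were short less often where the model already had an intron in its 5' untranslated part. In such genes 7.67% of 2151 first coding introns were short (95% Wilson interval 6.62 to 8.87%), against 12.97% of 6621 in genes with a predicted 5' end and no untranslated intron (12.2 to 13.8%). The odds ratio among introns under 300 bases was 0.560 (0.461 to 0.680, n = 7459, adjusted p = 1.96e-08 over the 7 tests chosen after the data were seen). Where no 5' end was predicted, the share was 2.29% of 916 first coding introns (1.504 to 3.48%). Whether those models hold the true first coding intron of the gene was not tested. All of these shares are over genes with more than 1 coding intron.

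The coding exons at the ends of genes were small beside short introns. In complete models the coding part of the first exon had a median of 66 bases (quartiles 30 and 118, n = 997) before a short first intron and 111 bases (56 and 195, n = 6490) before a comparison one. On the log2 scale this was a ratio of 0.584 (95% interval 0.550 to 0.620, n = 7487, adjusted p = 3.15e-39 over the 7 tests chosen after the data were seen). It was under 30 bases in 24.5% of the models with a short first intron and in 12.97% of the others. The coding part of the last exon had a median of 67 bases (quartiles 26 and 134, n = 437) after a short last intron and 141 bases (85 and 237, n = 6628) after a comparison one, a ratio of 0.416 (0.362 to 0.478, adjusted p = 3.76e-24). It was under 30 bases in 27.7% and 5.24% of these models. After the 30 last introns of under 60 bases its median was 20.5 bases. Scores of these terminal introns were lower as well: 49.1% of short and 87.4% of comparison last introns had a score of at least 0.95, as had 64.1% of short and 79.3% of comparison first introns. Terminal introns and exons are predictions, and the part of prediction error in their counts and sizes was not tested.

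Internal coding exons beside short introns were shorter too, by far less. The internal coding exon upstream had a median of 102 bases (quartiles 70 and 150, n = 2701) for short introns and 107 bases (78 and 150, n = 58682) for comparison introns. The ratio on the log2 scale was 0.930 (95% interval 0.904 to 0.957, n = 61383, adjusted p = 2.15e-06). Downstream the medians were 104 (n = 3278) and 107 bases (n = 58245), a ratio of 0.961 (0.937 to 0.986, adjusted p = 0.00319). The upper quartiles upstream were equal at 150 bases and the lower ones differed, 70 against 78 bases. The medians did not fall steadily with intron length. Upstream they were 115.5 bases for introns under 60, 108.5 for 60 to 79 and 99 for 110 to under 120 bases. They were also 99 bases for introns of 120 to under 130, and 107 for 160 to under 200. Downstream they were 129.5 bases under 60, 107 from 110 to under 120 and 104 from 120 to under 130. These medians by length were not tested. Exons between a pair of neighbouring short introns had a median of 93 bases (quartiles 67 and 134, n = 327), against 107 bases (n = 46751) between a pair of comparison introns. Of those exons, 38.2% and 38.4% had a length that is a multiple of 3.

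Short introns fell between codons slightly less often than comparison introns. Phase 0 held 46.3% of short introns (95% Wilson interval 44.7 to 47.9%) and 49.3% of comparison introns (48.9 to 49.7%), an odds ratio of 0.888 (95% interval 0.829 to 0.952, n = 69921, adjusted p = 0.00126). Phase 2 held 24.1% and 22.3%, an odds ratio of 1.10 (1.03 to 1.18, n = 69921, adjusted p = 0.0041). Phase 1 held 29.6% and 28.4%, with an odds ratio of 1.06 (0.981 to 1.14, n = 69921, adjusted p = 0.145) that did not pass the threshold. Phase 0 was the most frequent phase in both classes.

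The phase shares were also taken by place in the gene. The tests within a place were chosen after the data were seen and adjusted within that place. Among introns that are neither first nor last, phase 0 held 45.8% of 2233 short and 49.3% of 51133 comparison introns, and phase 1 held 31.2% and 28.4% (odds ratio 1.14, 95% interval 1.04 to 1.25, n = 53366, adjusted p = 0.00648). Among last introns phase 2 held 29.5% of 468 short introns and 22.3% of 7549 comparison introns, a difference that was not tested. For first introns phase 0 held 47.7% of 1052 and 48.4% of 7486 introns, with an odds ratio of 0.973 (0.854 to 1.11, n = 8538, adjusted p = 0.683). The difference in odds ratio between first and later introns was itself not past the threshold, at a ratio of 1.12 (0.968 to 1.31, n = 69921, adjusted p = 0.145 over the 7 tests chosen after the data were seen).

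**Figure D3:**
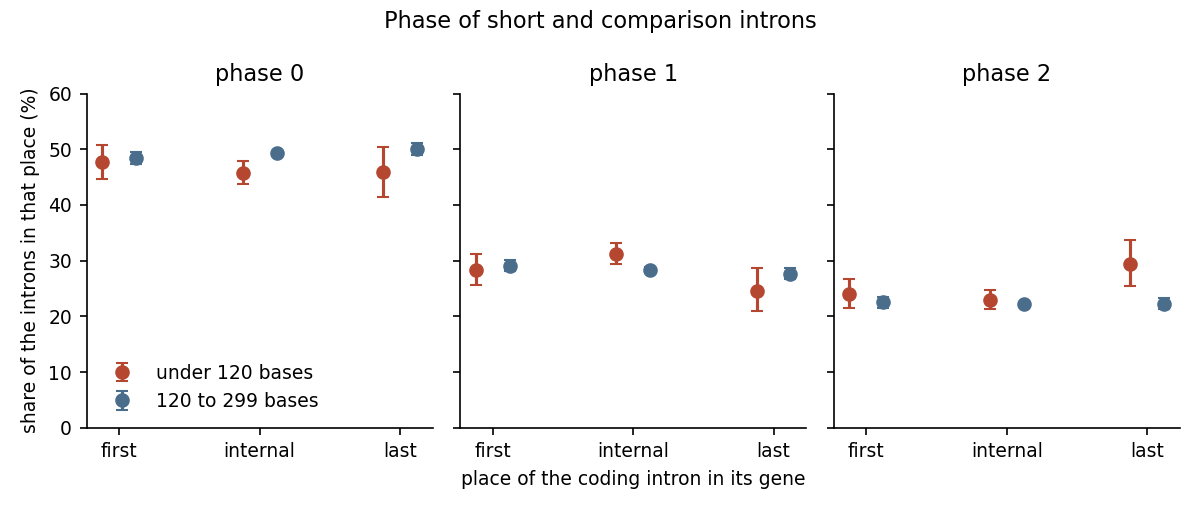
Share of introns in phase 0, 1 and 2, in percent (vertical axes), for coding introns under 120 bases in red and from 120 to under 300 bases in blue, by place in the gene (horizontal axes; internal means neither first nor last); points are shares and bars 95% Wilson intervals. Phase 0 is lower for short introns in the internal place, at 45.8% against 49.3%, and phase 2 is higher in the last place, at 29.5% against 22.3%.

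The predictor scored short introns lower than longer ones. The mean intron score was 0.885 ± 0.196 (SD, n = 3753) for short introns and 0.969 ± 0.121 (SD, n = 66168) for comparison introns, a difference of -0.0833 (95% interval -0.0906 to -0.0761, adjusted p = 8.14e-94). A score of at least 0.95 was given to 60.9% of the short and 87.7% of the comparison introns, an odds ratio of 0.218 (0.198 to 0.240, n = 69921, adjusted p = 1.94e-155). Scores below 0.5 were given to 216 short introns (5.76%) and to 946 comparison introns (1.43%). What the predictor's score rests on is not stated in the sources used here. With place in the gene, number of introns and flanking exon lengths held fixed, the mean score differed by -0.0776 (95% interval -0.0845 to -0.0707).

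Scores rose with length inside the short class. The share with a score of at least 0.95 was 28.6% under 60 bases, 28.7% from 60 to 79, 58.9% from 80 to 99, 63.4% from 100 to under 110 and 68.3% from 110 to under 120 bases. It went on rising beyond the class, to 72.7% from 120 to under 130 and 89.2% from 200 to under 300 bases. The gap between the classes was smaller for first introns, where 64.1% of the short and 79.3% of the comparison introns reached 0.95, than for later ones, with 59.7% and 88.8%. The odds ratio of short against comparison introns was 2.50 times as high among first introns (95% interval 2.16 to 2.90, n = 69921, adjusted p = 4.93e-32 over the 7 tests chosen after the data were seen). First introns of 80 to 99 bases reached 0.95 in 70.0% of 424 cases, above internal ones of that length at 55.0% of 545 and last ones at 39.4% of 132. First introns were also above internal ones from 60 to 79 bases, at 39.4% against 20.3%. From 100 to under 110 bases they were below them, at 59.5% of 242 against 67.4% of 549. From 110 to under 120 bases the shares were 67.2% of 302 and 69.3% of 984. The share among first introns thus did not rise at every step of length. Short last introns had the lowest share, 49.1% of 468.

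**Figure D4:**
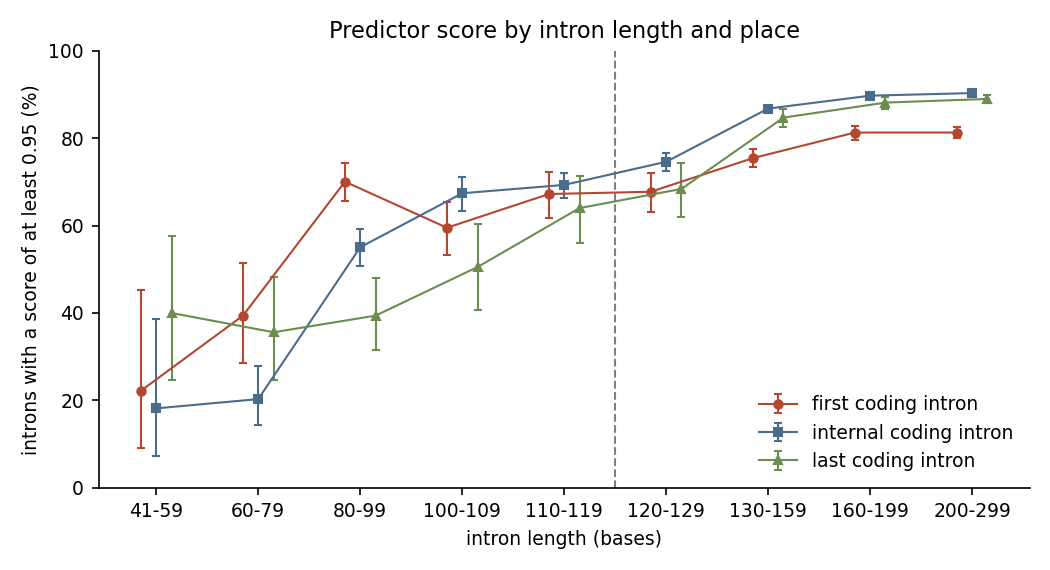
Share of coding introns with a predictor score of at least 0.95, in percent (vertical axis), by intron length in bases (horizontal axis, bins of unequal width) for first introns in red, introns that are neither first nor last in blue and last introns in green; points are shares and bars 95% Wilson intervals. All 3 lines are higher from 200 to under 300 bases (81.3, 90.3 and 89.0%) than at 60 to 79 bases (39.4, 20.3 and 35.6%), and the dashed line marks the limit of the short class.

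Most genes with a short intron had a single one, but short introns also gathered in the same genes. There were 1998 genes with 1 short intron, 450 with 2, 147 with 3 and 72 with 4 or more, up to 18. The 669 genes with at least 2 made up 6.60% of the genes with a coding intron and held 46.8% of the short introns. They were picked by that number, so this share is no measure of gathering. Their median was 13 coding introns, against 9 over all genes with a short intron. After a short intron the next intron of the gene was short in 11.5% of 2833 cases (95% Wilson interval 10.4 to 12.8%), against 3.99% of 48694 cases after a comparison intron (3.82 to 4.17%). The odds ratio was 3.01 (95% interval 2.63 to 3.46, n = 51527, adjusted p = 1.56e-49), with the number of introns and the first place held fixed and both introns under 300 bases. It was 2.80 (2.44 to 3.20, 48205 pairs) with a term for each scaffold and 2.31 (1.98 to 2.69, 17964 pairs) with comparison introns of 120 to under 200 bases only. Of 327 such pairs of neighbouring short introns, 10 had the same length, and their lengths differed by a median of 10 bases.

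The other introns of these genes were shorter as well. For genes of 3 or more coding introns a median was taken in each gene over its introns of 120 bases and longer. These gene medians centred on 205.5 bases in 2580 genes with a short intron (quartiles 180.5 and 238) and on 221 bases in 6293 genes without one (194 and 255). At equal intron number the log2 difference was -0.08 (95% interval -0.09 to -0.06, n = 8873, adjusted p = 3.32e-28), a ratio of 0.947. In the 40 genes with at least 5 short introns that median was 162 bases, and in the 8 genes with at least 10 it was 152.5 bases. For these genes intron number was not held fixed. Their medians were 28 and 38.5 coding introns, against 6 in the genes without a short intron. The share of introns that were short varied little with the number of introns in the gene, between 4.0 and 5.24% from genes of 2 introns to genes of 33 and more, with 1.54% in genes of 1. The odds ratio for each doubling of the intron number was 0.960 (0.909 to 1.01, n = 69921, adjusted p = 0.145). Its direction turned once place was held apart, to 1.21 among first introns and 1.13 among introns that are neither first nor last.

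No gene of 3 or more coding introns had only short ones, and 47 of 8873 such genes had at least 50% of their introns under 120 bases. The most short introns lay in g8501 (scaffold01168, bases 544400 to 575753, minus strand), with 18 among its 102 coding introns and a shortest one of 56 bases. They were scattered, with at most 2 in a row. Next came 4 genes with 12 short introns each. These were g4700 (scaffold00629, bases 649543 to 654707, plus strand) with 22 coding introns, g8464 (scaffold01168, bases 370081 to 381204, minus strand) with 34, g21 (scaffold00009, bases 59427 to 71900, minus strand) with 37 and g7140 (scaffold01003, bases 870751 to 889296, minus strand) with 58. Over the introns of at least 120 bases in these 5 genes the medians lay between 145.5 and 161 bases, against 221 bases in genes without a short intron. Intron number was not held fixed in that comparison. All 5 models were complete. The gene scores deposited for them lay between 0.01 and 0.08 and were not compared with those of other genes. A score of at least 0.95 was given to 15 of the 18 short introns of g8501, 11 of the 12 of g4700 and 9 of the 12 in each of the others.

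The longest row of short introns was 5, in g4700, whose introns 13 to 17 measured 104, 96, 62, 111 and 112 bases with scores of 0.99 to 1. Another 5 genes had 4 in a row, 35 genes had at least 3 and 259 at least 2. In g8458 (scaffold01168, bases 336980 to 339354, plus strand) introns 4 to 7, the last ones of the gene, measured 98, 111, 80 and 87 bases, each with a score of 1. Introns 10 to 13 of g4372 (scaffold00557, bases 1098331 to 1102115, plus strand) measured 73, 104, 112 and 116 bases, with scores of 0.62 for the shortest and 0.92 to 1 for the others. That gene had 10 short introns among 16, of which 4 reached a score of 0.95. In g661 (scaffold00047, bases 505791 to 512060, plus strand) introns 4 to 7 measured from 111 bases to just under the limit, between neighbours of 159 and 286 bases. Introns 3 to 6 of g8464 measured 83, 110, 90 and 111 bases with scores of 1, 0.83, 0.91 and 0.48.

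**Figure D5:**
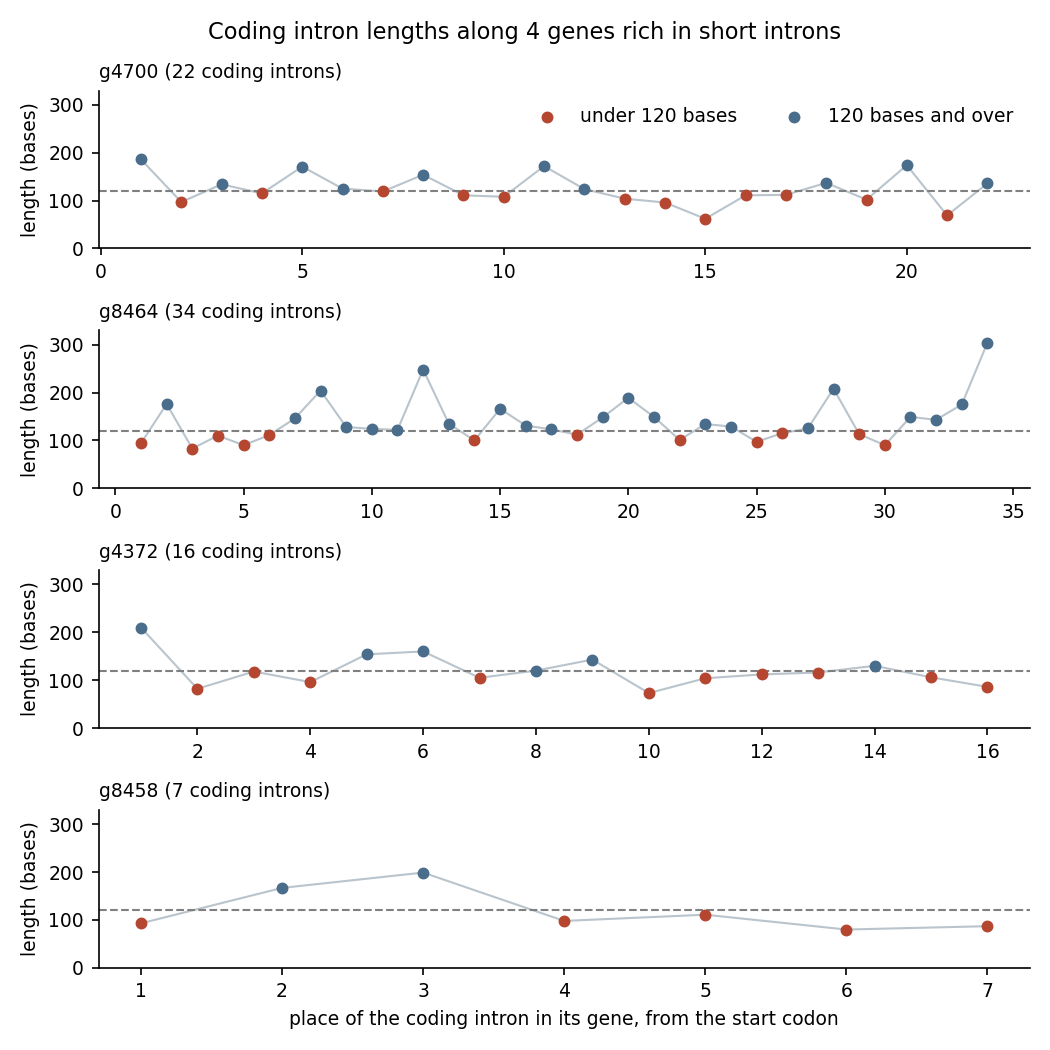
Length in bases (vertical axes) of each coding intron by its place from the start codon (horizontal axes) in g4700, g8464, g4372 and g8458, 4 genes named by their number or row of short introns; red points are under 120 bases, blue points 120 bases and longer, and the dashed line marks 120 bases. Rows of short introns appear at places 13 to 17 of g4700, 3 to 6 of g8464, 10 to 13 of g4372 and 4 to 7 of g8458, and the other introns stay mostly under 210 bases.

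The share of short introns differed between scaffolds, as values without a test. On the 37 scaffolds with at least 500 coding introns, which held 86.4% of the short ones, the share under 120 bases ranged from 1.70 to 7.92% with a median of 3.99%. It was highest on scaffold01168 with 221 of 2792 introns (7.92%, 95% Wilson interval 6.97 to 8.98%) and scaffold00132 with 71 of 901 (7.88%, 6.29 to 9.82%). Scaffold00629 followed with 203 of 3472 (5.85%, 5.11 to 6.68%), close to the next scaffolds in the order. It was lowest on scaffold00704 with 16 of 940 (1.70%, 1.05 to 2.75%), scaffold00252 with 20 of 735 (2.72%, 1.77 to 4.17%) and scaffold00269 with 16 of 545 (2.94%, 1.82 to 4.72%). The median over all coding introns, short ones included, was 189 bases on scaffold01168 and 238 bases on scaffold00704. Share and median did not always go together: scaffold01094 had a median of 195 bases and a share of 3.35%. Genes g8458, g8464 and g8501 lay on scaffold01168 between bases 336980 and 575753. The minus strand carried 51.1% of the short and 50.3% of the comparison introns.

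Other predicted transcripts of the same gene gave little information on short introns. Of 162 genes with more than 1 transcript, the chosen transcripts held 103 short and 1475 comparison introns. Every other transcript of the gene had the intron with the same ends for 79 and 1219 of these. The intron lay inside an exon of another transcript, as a retained intron would, in 2 of the short (1.94%, 95% Wilson interval 0.534 to 6.81%) and 4 of the comparison introns (0.271%, 0.106 to 0.695%), counts too low to compare.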

How the data were processed

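The gene models were deposited by the authors as a table of the whole series, with AUGUSTUS as the source per the file itself. Program version, settings, evidence and assembly version: not given in the sources used here. TopHat 1.3.3 and Cufflinks are named in the submitters' processing notes. The score column is used as deposited by the authors, who gave no description; 18 short introns score above 1, so scores were not read as probabilities. Coordinates count from 1.

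Introns were gaps between neighbouring coding segments, and intron phase came from the phase field of the coding segment after it. Models were analysed in Python 3.11.15 with pandas 2.3.3, SciPy 1.17.1 and statsmodels 0.14.6. Logistic and linear regressions used standard errors clustered by scaffold, with 1179 scaffolds in the score tests. The smallest p-values depended on the set of scaffolds. On scaffolds of at least 100 kb the odds ratio for a score of at least 0.95 was 0.219, with an adjusted p of 5.15e-36. Counts per length were fitted by quasi-Poisson regression with a natural cubic spline of 4 degrees of freedom. P-values were adjusted by Benjamini-Hochberg over 15 tests, with a threshold of 0.05. A further 7 tests were chosen after the data were seen and adjusted apart. Tests under another setting, such as a minimum score, were adjusted within that setting. The settings of first introns, introns after the first and introns neither first nor last were added after the data were seen. Wilson intervals treat introns as independent, cover counting error only and hold no error of prediction. The code was tested on simulated introns.

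Named were the 5 shortest introns, with their ties at the same length, the 5 genes with the most short introns, the 5 with the longest rows, and the 3 scaffolds with the highest and the lowest share. Genes with only short introns were also to be named and did not occur. The members and measures were chosen with earlier results of these data known, among them the low share of multiples of 3 and the short first introns, so these are no independent support.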

Additional observations from a re-analysis of the deposited data

How the results depend on the processing

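Of 141 values under other settings, 131 kept direction and call, 9 gained a call and 1 reversed. The number of short introns was 3753 also from gaps between exon lines. The odds ratio for the last place was 1.11 in complete models, 1.13 on scaffolds of at least 100 kb, 1.10 against 120 to under 200 bases, 1.21 for introns under 110 bases and 1.11 without scaffold00629, all past the threshold, and reversed to 0.836 with scores of at least 0.95. The odds ratio per doubling of the intron number passed it at 0.935 in complete models, 0.936 on scaffolds of at least 100 kb, 0.909 against 120 to under 200 bases and 0.921 under 110 bases. A further 35 values were added after seeing the data, with 23 kept. Among introns after the first the difference in relative position reversed to 0.0137 (it was -0.0173 among introns that are neither first nor last), the intron-number odds ratio to 1.07, and the last-place odds ratio rose to 1.58. Among introns that are neither first nor last the multiple-of-3 ratio lost its call at 0.928, counted from the lowest length with 10 such introns, as did its difference from the comparison set at 0.937 and phase 2 at 1.04. Phase 1 gained one at 1.14, and the intron-number odds ratio reversed to 1.13. Among first introns phase 0 lost its call at 0.973 and phase 2 at 1.09, phase 1 reversed to 0.963 and the intron-number odds ratio to 1.21. These sets hold fewer introns; the cause was not tested. The first-place odds ratio ranged from 2.98 to 4.23, the clustering odds ratio from 2.31 to 3.79 and the odds ratio for a score of at least 0.95 from 0.181 to 0.467, with every call kept. No paired analysis was possible because no value of a library was used, and no replicate could be left out. Depth is unknown here; small counts limit introns under 60 bases and retained introns.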

Other observations

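Introns in the untranslated parts of the same transcripts were short more often than coding introns, as values without a test. Of 3196 introns in 5' untranslated parts 17.5% were under 120 bases (95% Wilson interval 16.2 to 18.8%), and of 574 in 3' untranslated parts 16.2% were (13.4 to 19.4%), against 4.41% of the 85135 coding introns. The shortest measured 46 bases in 5' and 44 bases in 3' untranslated parts, against 41 bases in coding sequence, and the medians over all lengths were 190, 198.5 and 209 bases.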
